A study of Homo sapiens with 8 samples.

Results

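PTMS (ENSG00000159335, chromosome 12) encodes parathymosin, and PTMA (ENSG00000187514, chromosome 2) encodes prothymosin alpha. These 2 genes, of 63677 in the count tables, were picked by symbol and followed through every library of MOLT-4 and DND-41, human leukaemia lines of the T-cell acute lymphoblastic type. Cells of each line were grown for 24 h with 100 nM ACBI-1 or with its solvent DMSO, and total RNA was sequenced in 2 libraries per group, 8 in all. ACBI-1 is a bifunctional degrader that ties SMARCA2 and SMARCA4, the ATPases of the BAF chromatin remodelling complex, and the related subunit PBRM1 to the ubiquitin ligase VHL. The DMSO libraries differ from the ACBI-1 libraries of their line only in the compound given, so far as the labels say, and the labels do not say whether the libraries of a group came from separate cultures. PTMS was singled out because it was among the genes that rose most with ACBI-1 in MOLT-4. The MOLT-4 values of both genes are therefore a description, given with no test.

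Both proteins belong to the alpha-thymosin family. They are small, very acidic and largely unfolded, lie mostly in the nucleus and bind histones, the linker histone H1 among them, which loosens its hold on chromatin. Prothymosin alpha is abundant in dividing cells, is a known target gene of MYC, hinders assembly of the apoptosome, and binds KEAP1, which otherwise marks the stress factor NRF2 for degradation. Its first residues, cut off by the protease legumain, form the peptide thymosin alpha 1. Parathymosin is its less studied relative, is also known as a zinc-binding protein, and binds phosphofructokinase, an enzyme of glycolysis.

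The likeness of the genes lies in their coding sequences, which is why the ends of both are shown. In the GENCODE release 29 transcripts PTMA-201 and PTMS-201, the coding sequence with its stop codon had 336 bases in PTMA and 309 in PTMS. Of 303 aligned bases 206 were identical (68%). Capitals mark bases identical in the alignment, 39 of the first 60 and 36 of the last 60 in each gene.
PTMA, coding bases 1 to 60: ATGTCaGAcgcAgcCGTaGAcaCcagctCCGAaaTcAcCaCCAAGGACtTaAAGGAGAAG
PTMS, coding bases 1 to 60: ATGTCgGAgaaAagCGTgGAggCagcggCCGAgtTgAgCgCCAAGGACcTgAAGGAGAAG
PTMA, coding bases 277 to 336: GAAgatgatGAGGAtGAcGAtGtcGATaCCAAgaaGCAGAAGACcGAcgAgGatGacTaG
PTMS, coding bases 250 to 309: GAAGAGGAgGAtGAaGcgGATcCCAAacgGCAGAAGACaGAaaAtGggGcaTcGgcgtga

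Codons for the acidic residues, aspartate and glutamate, made up 54 of the 111 codons of PTMA (48.6%) and 47 of the 102 codons of PTMS (46.1%). PTMS had 13 lysine codons and PTMA 8. At the nucleotide level the genes differ enough to be counted apart: of 1040 windows of 100 bases, the stated read length, along PTMS-201, 0 occurred exactly in another gene. Of 1113 windows along PTMA-201, 26 (2.34%) occurred exactly in the pseudogene PTMAP5.

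Total counts were 21308737 to 22067644 per library, and 21636 to 23243 genes had a count. Of the 6 T-lineage markers, CD3D, CD3E, CD3G, CD5 and CD7 were found in every library, while PTCRA, the pre-T-cell receptor chain, was at 0 to 0.0467 CPM (counts scaled to the library's total) in DND-41. Their summed level was 2880 to 3290 CPM in DND-41 and 1580 to 1690 CPM in MOLT-4. The B-lineage markers measured summed to 0.323 to 3.85 CPM and the myeloid markers to 0.0467 to 0.464 CPM, with MS4A1 at 0 in every library.

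The labels of DND-41 and the authors' deposited fold changes do not describe the same contrast. Within 0.001, the fold changes that the authors' deposited table gives for DND-41 were those of libraries numbered 2 against libraries numbered 1 in 100% of 27069 genes, and those of the labelled treatments in 0.1515%. The MOLT-4 table that the authors deposited held the labelled treatments in 100% of 27777 genes. By the chi-square per degree of freedom of their counts, DND-41 libraries with the same number differed by 5.09 and 5.49 and all other DND-41 pairs by 63.2 to 75.5. No label says which assignment is right. DND-41 is therefore given below as labelled and, apart from that, by library number.

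The level of PTMS was low in 1 group only. In counts, the MOLT-4 libraries with DMSO held 22 (exact Poisson 95% interval 13.8 to 33.3) and 19 (11.4 to 29.7), and those with ACBI-1 held 602 and 547. In DND-41 the ACBI-1 labels covered 428 and 616 counts, the DMSO labels 475 and 678. These intervals cover counting error only. Only the MOLT-4 DMSO pair thus had few PTMS reads.

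On the CPM scale set by TMM over all 8 libraries, PTMS stood at 27.84 and 25.08 CPM in MOLT-4 with ACBI-1 and at 1.095 and 0.9485 CPM with DMSO. In DND-41 it stood at 20.21 and 25.85 CPM under the ACBI-1 label and at 22.41 and 28.74 CPM under the DMSO label. From the lowest group to the highest, the means were 1.02 ± 0.104 CPM (SD, n = 2) in MOLT-4 with DMSO, 23 ± 3.99 in DND-41 labelled ACBI-1, 25.6 ± 4.48 in DND-41 labelled DMSO and 26.5 ± 1.95 in MOLT-4 with ACBI-1. The top 3 groups of that order overlap, and the MOLT-4 level with ACBI-1 lies inside the range of the 4 DND-41 libraries. By counts, PTMS ranked 6551 to 7624 among the genes of a library in those 3 groups and 12433 and 12691 in the MOLT-4 DMSO libraries. Whether the 2 lines differ cannot be told apart from a difference between their separately made count tables.

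PTMA was among the most counted genes of every library, at rank 17 to 19 and 0.2178% to 0.3467% of all counts. It stood at 2679 and 2649.8 CPM in MOLT-4 with ACBI-1 and at 3808 and 3739.9 CPM with DMSO. The DND-41 libraries labelled ACBI-1 held 2535 and 1959 CPM, and those labelled DMSO held 2863 and 2103 CPM. Group means ran from 2247 ± 407 CPM (SD, n = 2) in DND-41 labelled ACBI-1 through 2483 ± 538 in DND-41 labelled DMSO and 2664 ± 20.4 in MOLT-4 with ACBI-1 to 3774 ± 47.9 in MOLT-4 with DMSO. Again the MOLT-4 DMSO libraries stood apart, here at the top, and each neighbouring pair among the lower 3 groups overlaps. In DND-41 the libraries numbered 1 were the higher ones for PTMA and the lower ones for PTMS under both labels.

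**Figure D1:**
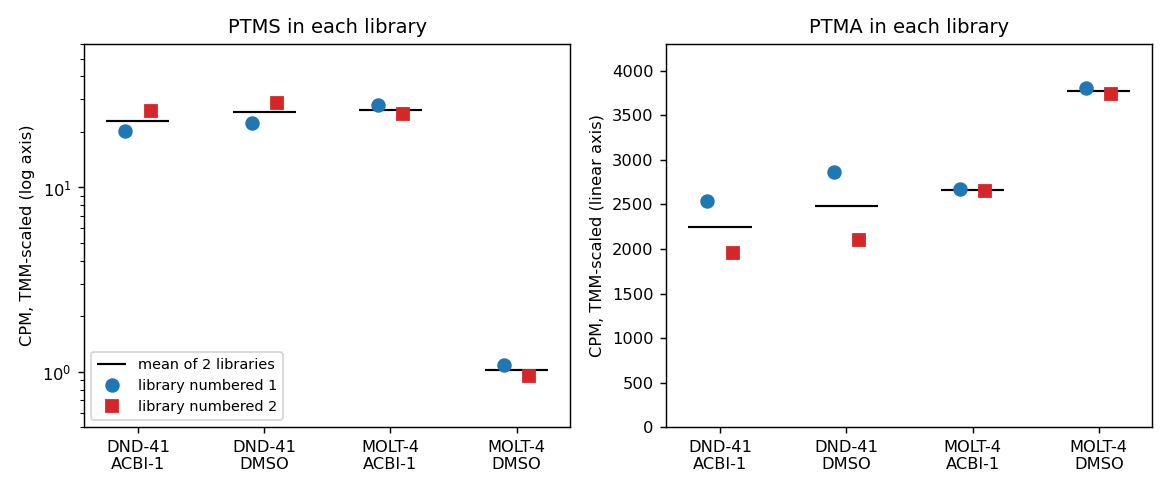
CPM of PTMS (left, log axis) and PTMA (right, linear axis) in each of the 8 libraries, TMM-scaled over both lines, with circles and squares for the libraries numbered 1 and 2 and a bar at the mean of each group. The MOLT-4 DMSO pair is lowest for PTMS, at 1.095 and 0.9485, and highest for PTMA, at 3808 and 3739.9.

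The balance between the relatives moved with these levels. Per count of PTMS there were 73.2 to 128 counts of PTMA in DND-41, 96.2 to 106 in MOLT-4 with ACBI-1 and 3478 to 3943 in MOLT-4 with DMSO. For a ratio per length, the merged exons of all annotated transcripts were taken, 1475 bases for PTMS and 3378 for PTMA. The ratio of PTMA to PTMS was then 31.9 to 55.8 in DND-41, 42 to 46.1 in MOLT-4 with ACBI-1 and 1518 to 1722 in MOLT-4 with DMSO. The transcripts PTMA-201 and PTMS-201 are nearer in length, at 1212 and 1139 bases, so the size of this ratio depends on the length taken. Mean CPM per kilobase of exon was 17.9 for PTMS and 789 for PTMA in MOLT-4 with ACBI-1. PTMA remained the more abundant transcript per length in every library. Across the 8 libraries the log2 CPM of the genes had a Pearson r of -0.86, a description over libraries that share lines and groups.

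In MOLT-4 the log2 fold change with ACBI-1 was 4.71 (SE 0.147) for PTMS, a 26.1-fold higher level, and -0.48 (SE 0.0357) for PTMA, a level 0.715 times that with DMSO. PTMS had the 4th highest fitted change of 14618 genes tested, and PTMA the 1823rd lowest. The CPM ratio of ACBI-1 to DMSO within the same library number was 25.4 and 26.4 for PTMS and 0.704 and 0.709 for PTMA. Neither gene overlapped between the groups. In this comparison edgeR called 58.4% of all genes at an adjusted p under 0.05, 28.2% higher and 30.2% lower, and 37.5% of all genes lay wholly above and 40.5% wholly below DMSO. Those shares are printed as the background of a comparison that chose the genes, and nothing is read from them for PTMS and PTMA. In the authors' deposited MOLT-4 table the log2 fold changes were 4.701 (SE 0.272) for PTMS and -0.495 (SE 0.0279) for PTMA, where 35.1% of genes had an adjusted p under 0.05, 14.7% higher and 20.3% lower. In bulk RNA, fewer cells holding a transcript and less transcript per cell cannot be told apart.

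With total counts in place of TMM, the log2 fold change was -0.36 for PTMA and 4.82 for PTMS, and the median of all genes moved by a like amount, from 0.01 to 0.13.

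The same comparison in DND-41 as labelled, which the choice of the genes did not use, gave small differences with wide intervals. The 95% intervals of fold changes, here and by library number below, are normal approximations from the SE. With so few libraries they are narrower than the edgeR test itself would give. PTMS was at 23 ± 3.99 CPM in the libraries labelled ACBI-1 and 25.6 ± 4.48 CPM in those labelled DMSO (SD, n = 2), which is a log2 fold change of -0.14 (SE 0.246, 95% interval -0.62 to 0.34, edgeR adjusted p = 1). PTMA was at 2247 ± 407 and 2483 ± 538 CPM, a log2 fold change of -0.14 (SE 0.226, 95% interval -0.58 to 0.31, edgeR adjusted p = 1). For both genes the labelled groups overlapped, and the difference was smaller than the spread between replicates. The background is 0% of 14602 genes called by edgeR, with 37 at an unadjusted p under 0.05 and 0 called by DESeq2, and 8.33% of genes lay wholly above and 7.85% wholly below DMSO. The lack of a call for PTMS and PTMA is that of every gene tested here.

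Within a library number the picture was narrower. The CPM ratio of ACBI-1 to DMSO was 0.902 among the libraries numbered 1 and 0.899 among those numbered 2 for PTMS, and 0.885 and 0.932 for PTMA. Each gene thus stood slightly lower in both libraries labelled ACBI-1 than in their partners. With the number as a block, edgeR gave an adjusted p of 0.248 for PTMS (log2 fold change -0.14) and of 0.088 for PTMA (-0.13), while calls over all genes went from 0 to 1349. PTMS was at -0.14 in DND-41 as labelled and at 4.71 in MOLT-4. The difference between the lines was not tested, because PTMS was chosen by its MOLT-4 change and the DND-41 labels are in doubt.

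By library number, the contrast that the authors' deposited DND-41 table holds, the genes parted. PTMS was at 27.3 ± 2.04 CPM in the libraries numbered 2 and 21.3 ± 1.55 CPM in those numbered 1 (SD, n = 2), which is a log2 fold change of 0.40 (SE 0.0909, 95% interval 0.22 to 0.57, edgeR adjusted p = 0.00429). PTMA was at 2031 ± 102 and 2699 ± 232 CPM, a log2 fold change of -0.37 (SE 0.082, 95% interval -0.53 to -0.21, edgeR adjusted p = 0.00337). PTMS was higher in both libraries numbered 2 than in either numbered 1, and PTMA lower. Such calls were common: the background here is 51.1% of 14602 genes, 25.4% higher and 25.7% lower, with 35.8% lying wholly above and 39.5% wholly below. Under 2 alternatives PTMS was not called, with no low-count filter (log2 fold change 0.36, edgeR adjusted p = 0.0721) and without the library labelled DMSO replicate 2 (0.31, adjusted p = 0.068).

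In the authors' deposited DND-41 table the log2 fold change was 0.364 (SE 0.145, adjusted p = 0.035) for PTMS and -0.403 (SE 0.0812, adjusted p = 5.12e-06) for PTMA, against a background of 36.8% of genes in that table with an adjusted p under 0.05, 15.2% higher and 21.6% lower. Which of these libraries had received ACBI-1 is not settled by the labels and the table together. The signs by number were those of the MOLT-4 difference for both genes. How many of all genes match in sign was not computed, so nothing about the labels is read from this. For PTMS the size was far smaller, 0.40 against 4.71.

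**Figure D2:**
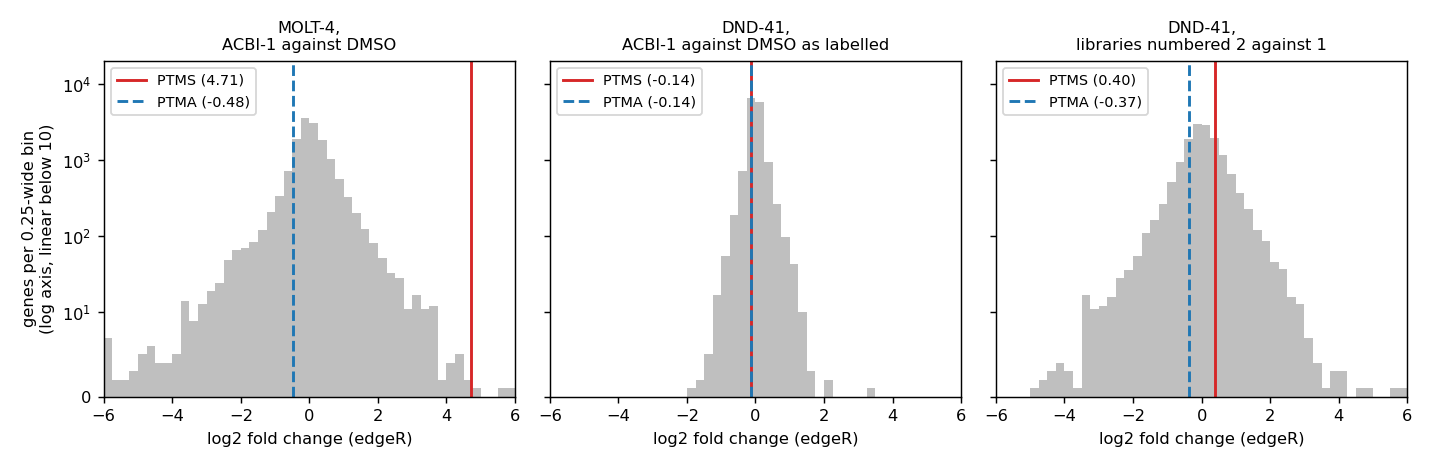
Number of genes per bin of log2 fold change (edgeR, bins 0.25 wide, the end bins holding all larger changes) in MOLT-4 and in DND-41 as labelled and by library number, on a count axis that is logarithmic above 10. The lines mark PTMS, at 4.71, -0.14 and 0.40, and PTMA, at -0.48, -0.14 and -0.37.

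PTMA has many processed pseudogenes, intronless copies scattered over the genome, and reads from the parent can be counted on them. Of 13 gene entries with a PTMAP symbol in the count tables, several of which share the symbol PTMAP1, 3 passed the low-count filter. All 3 fell in MOLT-4 with ACBI-1 (median log2 fold change -0.49, against 0.01 over all genes, of which 30.2% fell). PTMAP4 was at 10.64 and 11.69 CPM with ACBI-1 and 15.38 and 15.82 CPM with DMSO (log2 fold change -0.46, edgeR adjusted p = 6.17e-05). PTMAP5 was at 10.31 and 9.262 CPM with ACBI-1 and 13.99 and 13.83 CPM with DMSO (log2 fold change -0.49, edgeR adjusted p = 6.64e-05). PTMAP2, the third, which the naming rule does not take, was at 8.278 and 8.207 CPM with ACBI-1 and 14.78 and 13.18 CPM with DMSO (-0.74, edgeR adjusted p = 8.24e-08). PTMA itself was at -0.48, and how many of the pseudogene reads came from it was not tested. In DND-41 by library number none of the 3 passed the test (median -0.25). Inside PTMA, on its own strand, the annotation also places MIR1244-1, which shares 85 exon bases with it, and a small RNA of the family RF00015, which shares 123.

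More of the neighbours of PTMS on chromosome 12 were called higher than lower. Of the 6 nearest protein-coding genes on each side, all tested in MOLT-4, 7 rose, 1 fell and 4 were not called (median log2 fold change 0.31; over all genes 0.01, with 28.2% called higher). By library number in DND-41, 5 of 9 tested rose, 0 fell and 4 were not called (median 0.53). There 25.4% of all genes rose, and with no low-count filter 3 neighbours rose. Whether the neighbours differ as a set from other genes was not tested. MLF2, the next gene, overlaps PTMS on the opposite strand with 0 shared exon bases, and over the 8 libraries held 982% of the count of PTMS. In MOLT-4 it stood at 208.1 and 190.7 CPM with ACBI-1 and 200.7 and 187.9 CPM with DMSO (log2 fold change 0.06, edgeR adjusted p = 0.245), so the level of this overlapping gene differed by less than its spread. With total-count scaling MLF2 was called, at 0.18 (edgeR adjusted p = 9.53e-05).

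On the other side lie LAG3, an inhibitory receptor of T cells, and its relative CD4, the co-receptor of helper T cells. LAG3 was at 0.6474 and 0.7336 CPM with ACBI-1 and 1.145 and 1.198 CPM with DMSO (log2 fold change -0.74, edgeR adjusted p = 0.0622), a low level and no call. CD4 was at 9.11 and 8.712 CPM with ACBI-1 and 5.773 and 7.488 CPM with DMSO (log2 fold change 0.45, edgeR adjusted p = 0.00271). That call was lost with DESeq2, with no low-count filter and without any 1 of 3 of the libraries; without DMSO replicate 1 the value fell to 0.27 (edgeR adjusted p = 0.129).

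GPR162, an orphan G-protein-coupled receptor beyond CD4, had the largest rise of the neighbours named by the rule. It was at 6.428 and 4.631 CPM with ACBI-1 and 0.5475 and 0.649 CPM with DMSO (log2 fold change 3.21 with SE 0.259 and edgeR adjusted p = 2.13e-14). Unlike PTMS, GPR162 was low in DND-41 too, at 0.1889 and 0.5876 CPM under the ACBI-1 label and 0 and 0.6359 CPM under the DMSO label. PIANP and LEPREL2 (now P3H3, a collagen prolyl hydroxylase) fell outside the naming rule for their low level and were picked after their values were seen. Their log2 fold changes in MOLT-4 were 2.48 and 3.66, from 0.0998 to 0.576 CPM and from 0.0498 to 0.691 CPM.

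The other neighbours changed less. ING4, a reader of methylated histone H3, rose from 18.1 ± 1.23 CPM to 27.6 ± 0.191 CPM (SD, n = 2; log2 difference 0.62, edgeR adjusted p = 2.11e-09). COPS7A, a subunit of the COP9 signalosome, fell from 42 ± 0.756 to 35 ± 1.25 CPM (-0.25, edgeR adjusted p = 0.000587), and this was not called with total-count scaling (-0.13, adjusted p = 0.0726).

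Around PTMA on chromosome 2 only 6 of 12 neighbours were expressed enough to be tested in MOLT-4, of which 1 rose, 2 fell and 3 were not called (median log2 fold change -0.03), beside 28.2% and 30.2% of all genes. NCL, which encodes nucleolin and is also an acidic histone chaperone, fell from 1637 and 1606 CPM to 1033 and 1036 CPM (log2 fold change -0.63 with SE 0.0345 and edgeR adjusted p = 6.16e-20). By library number in DND-41, NCL fell as well, with 641.1 and 706.9 CPM in the libraries numbered 2 and 1334 and 1389 CPM in those numbered 1 (-0.98, edgeR adjusted p = 2.31e-06). ARMC9, a protein of the cilium base, rose in MOLT-4 by 0.47 on the log2 scale (edgeR adjusted p = 8.51e-05). COPS7B fell by 0.20 (edgeR adjusted p = 0.000102), a call that total-count scaling ended (-0.08, adjusted p = 0.113). DIS3L2, an exoribonuclease, was at -0.14 (edgeR adjusted p = 0.0605).

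**Figure D3:**
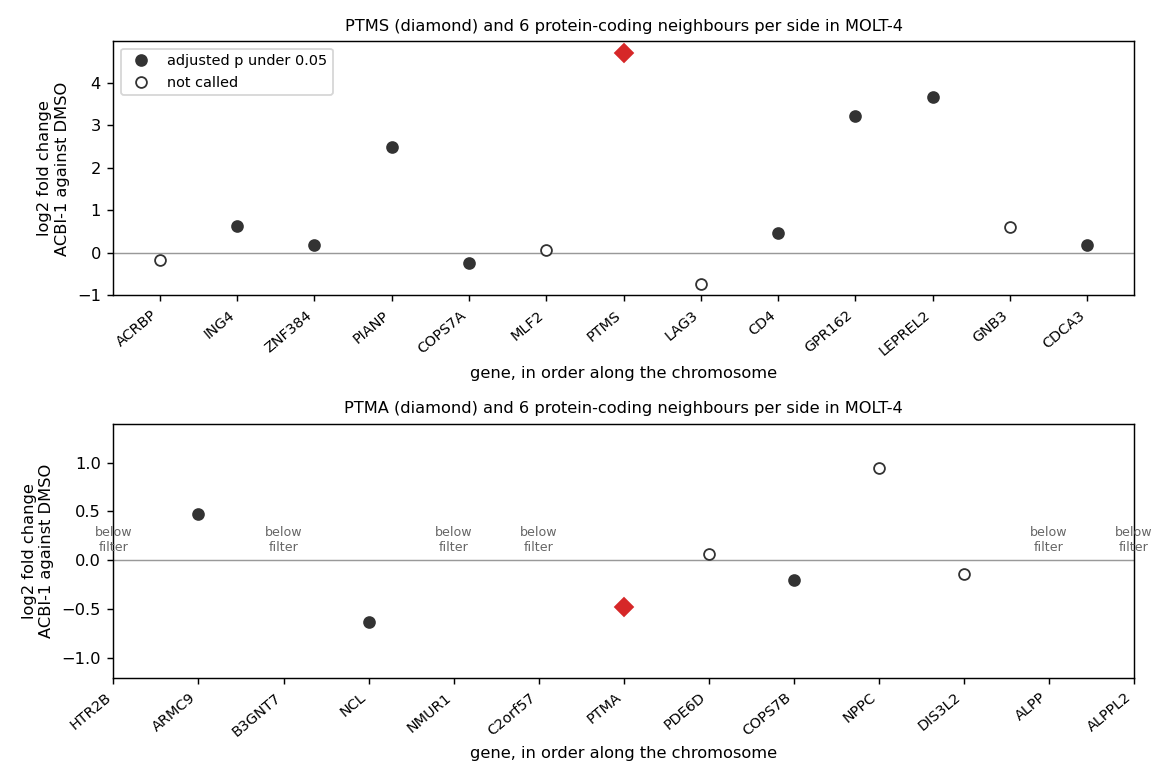
Log2 fold change (ACBI-1 against DMSO, MOLT-4, edgeR) of PTMS (top) and PTMA (bottom), each a diamond, and of their 6 protein-coding neighbours per side in chromosome order, filled where the adjusted p is under 0.05. GPR162, at 3.21, stands near PTMS at 4.71, while MLF2 and LAG3, directly beside PTMS, are at 0.06 and -0.74.

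Of the linker histones, the shared binding partner, only 3 of 10 genes passed the filter in MOLT-4, where 0 rose, 1 fell and 2 were not called (median log2 fold change 0.04; of all genes 28.2% rose and 30.2% fell). Of 5 tested by library number in DND-41, 2 rose, 0 fell and 3 were not called (median 0.14; of all genes 25.4% rose and 25.7% fell). Most H1 messages lack a poly(A) tail, so their level in a library depends on how it was made. H1F0, the variant of cells that leave the cycle, was at 27.98 and 26.87 CPM with ACBI-1 and 31.5 and 32.25 CPM with DMSO (log2 fold change -0.20, edgeR adjusted p = 0.0102). DESeq2, total-count scaling and leaving out either of 2 libraries ended that call, with a value of -0.08 under total counts. H1FX was at 218 ± 15.4 CPM with ACBI-1 and 215 ± 0.213 CPM with DMSO (SD, n = 2; 0.04, edgeR adjusted p = 0.411), but rose by 0.16 with total counts, where 2 linker histones rose and 0 fell.

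The other acidic histone chaperones, which like prothymosin alpha carry long acidic runs, were 12 genes, all tested. In MOLT-4 with ACBI-1, 0 rose, 9 fell and 3 were not called (median log2 fold change -0.16; 30.2% of all genes fell), but with total counts 3 rose and 5 fell. By library number in DND-41, 0 rose and 9 fell (median -0.26; 25.7% of all genes fell). NPM1, the abundant nucleolar chaperone nucleophosmin, was at 1212 and 1261 CPM with ACBI-1 and 1666 and 1709 CPM with DMSO in MOLT-4 (-0.43, edgeR adjusted p = 3.17e-14). SET, an inhibitor of histone acetylation, was at 957.9 and 950.3 CPM with ACBI-1 and 1205 and 1196 CPM with DMSO (-0.31, edgeR adjusted p = 1.26e-10). NPM3, the relative of nucleophosmin, fell by 0.33 on the log2 scale (edgeR adjusted p = 4.74e-07). PTMA thus had a difference, -0.48, between those of NPM1 and NCL.

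The apoptosome, the caspase platform that prothymosin alpha hinders, had calls in both directions. Of 7 genes in MOLT-4, 1 rose, 2 fell and 4 were not called (median log2 fold change 0.10; of all genes 28.2% rose and 30.2% fell). By library number in DND-41, 2 rose, 2 fell and 3 were not called (median 0.01; of all genes 25.4% rose and 25.7% fell). CYCS, cytochrome c, was at 190.1 and 199.3 CPM with ACBI-1 and 307.1 and 315.4 CPM with DMSO in MOLT-4 (-0.66, edgeR adjusted p = 1.96e-19). XIAP, an inhibitor of caspases, rose from 63.4 ± 2.51 to 82.4 ± 2.17 CPM (SD, n = 2; 0.40, edgeR adjusted p = 3.69e-09). APAF1, the scaffold, was at 25.8 ± 1.31 CPM with ACBI-1 and 23.7 ± 0.438 CPM with DMSO (0.14, edgeR adjusted p = 0.0906), and was called with total counts (0.26, adjusted p = 0.00186).

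Among KEAP1, NRF2 and their partners and targets, 12 of 14 genes were tested in MOLT-4, where 0 rose, 4 fell and 8 were not called (median log2 fold change -0.06), near the 30.2% of all genes that fell, and with total counts 3 rose and 1 fell. KEAP1, the adaptor that prothymosin alpha binds, was at 80.7 and 81.07 CPM with ACBI-1 and 89.34 and 93.6 CPM with DMSO (-0.16, edgeR adjusted p = 0.00318). Total-count scaling ended that call (-0.04, adjusted p = 0.49), as did leaving out DMSO replicate 2 (-0.13, adjusted p = 0.0993). NFE2L2, which encodes NRF2, was at 58 ± 0.724 CPM with ACBI-1 and 61.5 ± 1.93 CPM with DMSO (SD, n = 2; -0.06, edgeR adjusted p = 0.3). GCLC, the catalytic subunit of the first enzyme of glutathione synthesis and an NRF2 target, fell from 88.8 ± 3.16 to 55.3 ± 0.464 CPM (-0.66, edgeR adjusted p = 1.94e-15). MAFG, a DNA-binding partner of NRF2, fell by 0.15 on the log2 scale (edgeR adjusted p = 0.02), a call lost with total counts, with DESeq2 and without any 1 of the 4 libraries. By library number in DND-41, 9 of 11 tested fell and 0 rose (median -0.35; 25.7% of all genes fell), with GCLC at -0.73 and NFE2L2 at -0.41.

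MYC, a known activator of PTMA, was taken with the partners and rivals of its network. Of 9 genes in MOLT-4, 1 rose, 5 fell and 3 were not called (median log2 fold change -0.14; of all genes 28.2% rose and 30.2% fell). Of the same 9 by library number in DND-41, 2 rose, 4 fell and 3 were not called (median -0.14; 25.4% and 25.7%). MYC was at 335.3 and 326.3 CPM with ACBI-1 and 551.5 and 537.6 CPM with DMSO (log2 fold change -0.70 with SE 0.0352 and edgeR adjusted p = 3.16e-21). By library number in DND-41, MYC was at 148.9 and 174.7 CPM in the libraries numbered 2 and 489.1 and 527.6 CPM in those numbered 1 (-1.61, edgeR adjusted p = 2.16e-07). The libraries low in MYC within a line were thus those low in PTMA, a description of 4 libraries per line. Such a pattern was common: 40.5% of all genes in MOLT-4 and 39.5% by library number in DND-41 lay wholly below. Whether MYC bears on PTMA here was not tested. MXD3, a partner of MAX that represses MYC targets, rose by 0.68 in MOLT-4 (edgeR adjusted p = 6.48e-15) and by 1.33 by library number (edgeR adjusted p = 8.18e-07). MLX, the MAX-like partner, fell by 0.55 and MXD1 by 0.54 in MOLT-4.

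Because MYC binds the E-box, the sequence before the start of PTMA was searched for it and for other promoter motifs. The 150 bases before the start in RefSeq (GRCh38.p14, chr2:231708375-231708524, plus strand) are printed with the CCAAT boxes and the TGGGAA core of RBPJ, the NOTCH partner, in capitals.
PTMA, 150 bases before its start: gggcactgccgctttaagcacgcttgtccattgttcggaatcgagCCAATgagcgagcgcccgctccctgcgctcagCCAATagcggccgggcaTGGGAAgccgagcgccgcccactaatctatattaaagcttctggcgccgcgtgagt
Over a window of 300 bases and both strands, CCAAT was found 2 times, at -105 and -73, TGGGAA 1 time at -56 and the GC box GGGCGG 1 time at -42 on the reverse strand. CCAAT was present in 34.6% of 35116 RefSeq promoters of that length, TGGGAA in 24% and GGGCGG in 45%. The E-box CACGTG, present in 7.26% of promoters, gave 0 matches in this window. Sequence outside the window, the introns of PTMA included, was not searched, so an E-box elsewhere in the gene would have been missed. These are matches of letters, not sites shown to be bound.

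LGMN encodes legumain, the protease that cuts thymosin alpha 1 from prothymosin alpha. It was at 24.56 and 25.63 CPM with ACBI-1 and 12.14 and 13.28 CPM with DMSO in MOLT-4 (log2 fold change 1 with SE 0.084 and edgeR adjusted p = 7.17e-14). LGMN was thus higher where PTMA was lower, beside 37.5% of all genes that lay wholly above DMSO. In DND-41 by library number, LGMN was at 12.9 ± 2 and 9.75 ± 0.0917 CPM (SD, n = 2; 0.44, edgeR adjusted p = 0.0121), a call lost with no low-count filter and without the library labelled DMSO replicate 2 (0.27, adjusted p = 0.153).

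The beta-thymosins share a name with these genes but are actin-binding peptides of unrelated sequence. Of 4 tested in MOLT-4, 1 rose, 2 fell and 1 was not called (median log2 fold change -0.14; of all genes 28.2% rose and 30.2% fell). TMSB4X, the main one, was at 837.7 and 858.7 CPM with ACBI-1 and 988.3 and 988.2 CPM with DMSO (-0.20, edgeR adjusted p = 2.51e-06), and TMSB10 fell by 0.39 (edgeR adjusted p = 9.55e-13). In DND-41 by library number, TMSB4X rose by 0.50 (edgeR adjusted p = 0.00157; 0.46 and 0.0641 with no low-count filter), opposite in sign to PTMA. TMSB15A rose in MOLT-4 by 0.27 (edgeR adjusted p = 0.0051), a call lost with DESeq2 (adjusted p = 0.085), with no low-count filter (adjusted p = 0.128), without ACBI-1 replicate 2 (0.22, adjusted p = 0.107) and without DMSO replicate 2 (0.18, adjusted p = 0.143).

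Phosphofructokinase, the enzyme parathymosin binds, has 3 subunit genes, and all 3 fell in MOLT-4 with ACBI-1 (median log2 fold change -0.46; 30.2% of all genes fell) and by library number in DND-41 (median -0.75; 25.7% of all genes fell). PFKM, the muscle form, was at 67.75 and 72.4 CPM with ACBI-1 and 120.1 and 118.9 CPM with DMSO (-0.75, edgeR adjusted p = 2.83e-18). PFKL, the liver form, fell from 161 ± 1.49 to 115 ± 0.771 CPM (SD, n = 2; -0.46, edgeR adjusted p = 2.3e-13), and PFKP, the platelet form, from 260.5 ± 9.14 to 189.8 ± 4.4 CPM (-0.44, edgeR adjusted p = 1.92e-13). PTMS had the opposite sign in both comparisons, but it was chosen for its rise in MOLT-4. A link between PTMS and these subunits was not tested. In DND-41 as labelled, 0 genes of any of these lists passed the edgeR test, as 0 of all genes did. With the replicate block, edgeR called 10 of 67 list genes there, beside 9.24% of all genes, among them TMSB10 (-0.32, adjusted p = 3.82e-08), TMSB4X (-0.21, adjusted p = 0.00116) and MYC (-0.16, adjusted p = 0.0094).

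The MOLT-4 calls on the lists, like those over all genes, rested on the small spread between its 2 libraries per group. Of 71 list genes tested, 43 were called when the line was fitted alone, beside 58.4% of all genes. With a common spread estimated over both lines as labelled, in which the DND-41 replicates lay far apart, 1 list gene was called, MAX. Calls over all genes went from 8533 to 544 between these fits.

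**Figure D4:**
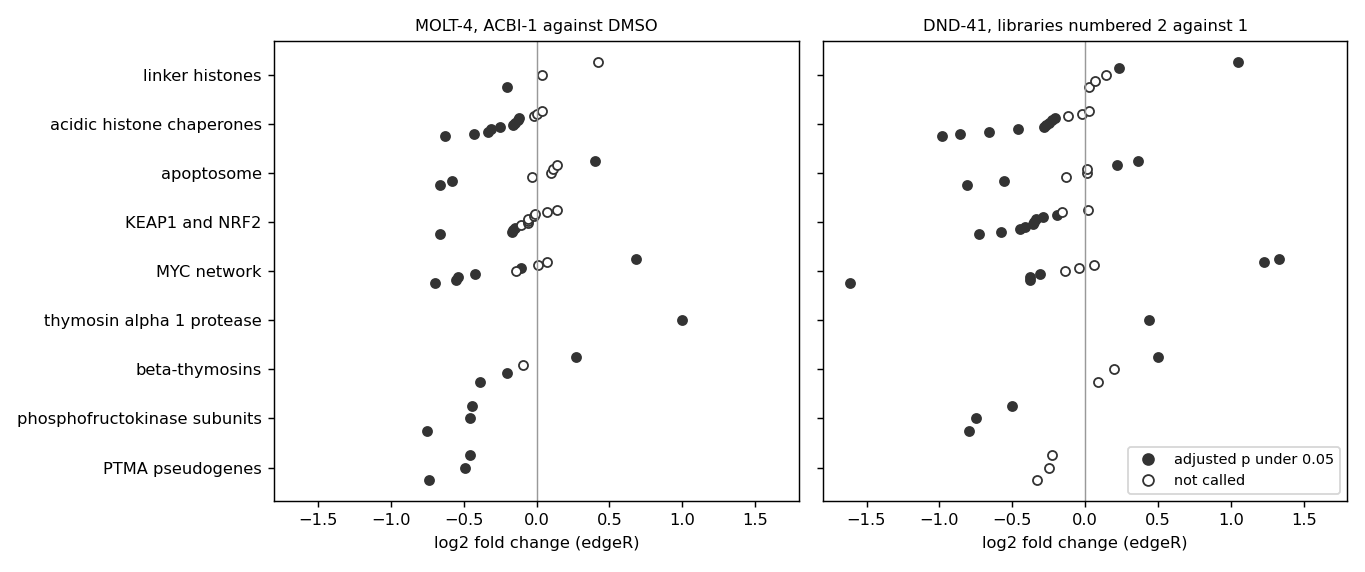
Log2 fold change (edgeR) of each tested gene in 9 lists, in MOLT-4 (left) and in DND-41 by library number (right), filled where the adjusted p is under 0.05. All 3 phosphofructokinase subunits lie below 0 in both panels, and MYC is the lowest point at right, at -1.61.

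Genes with the profile most like PTMS were sought by the root mean square distance of their centred log2 CPM over the 8 libraries, among 10447 genes with a mean of at least 5 CPM. The nearest was BAIAP2-AS1, a noncoding RNA antisense to BAIAP2, at a distance of 0.555 (Pearson r 0.979), then TTC7B at 0.744 (0.98), C5 at 0.782 (0.933), ZYX at 0.844 (0.913) and HFE at 0.866 (0.912). The median distance of all genes from PTMS was 2.02. Each of these 5 was low in MOLT-4 with DMSO, between 0.897 and 1.22 CPM, and higher with ACBI-1, between 5.83 and 10.1 CPM. None reached in MOLT-4 with ACBI-1 its mean level of DND-41, whereas PTMS did. PTMS was chosen for its large MOLT-4 rise, and the lines have separately made count tables, so nothing is read from this contrast. C5 encodes a complement component, ZYX the adhesion protein zyxin and HFE a regulator of iron uptake.

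Nearest to PTMA in profile were NARS2, a mitochondrial asparaginyl-tRNA synthetase, at 0.0381 (Pearson r 0.993), MRPS36 at 0.0424 (0.992), SSB, the La protein that binds new RNA polymerase III transcripts, at 0.0501 (0.99), EIF2A, an initiation factor, at 0.0544 (0.987), and DDX24, an RNA helicase, at 0.0549 (0.986). The median distance of all genes from PTMA was 0.396. The distance grows with how far a gene itself varies, so those from PTMA and from PTMS are not on a common scale. These genes were picked for their likeness, and the libraries share lines and groups, so the r values carry no test. Their MOLT-4 log2 fold changes lay between -0.45 and -0.37, beside the -0.48 of PTMA.

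**Figure D5:**
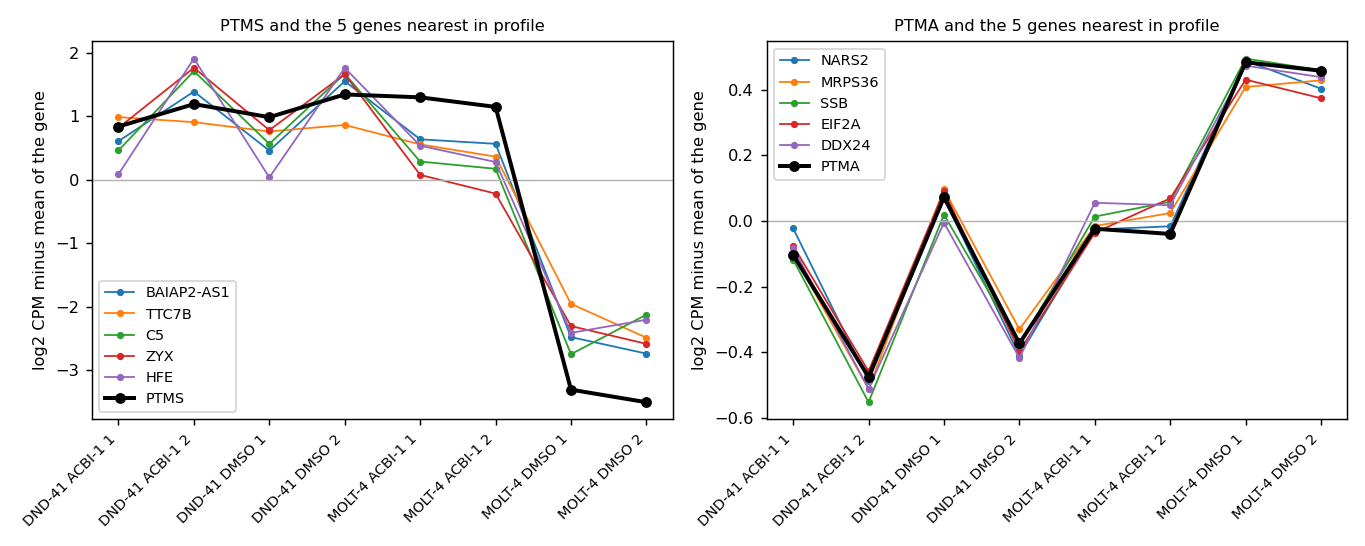
Log2 CPM of PTMS (left) and PTMA (right), black, and of the 5 genes nearest to each in profile, per library and relative to each gene's own mean over the 8 libraries. The 5 genes follow PTMA within a distance of 0.0549, while those beside PTMS drop less in the MOLT-4 DMSO libraries.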

How the data were processed

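Strand-specific paired-end reads of total RNA were, per the submitters' processing notes, aligned to hg19 with STAR 2.5.2a, counted with featureCounts and tested with DESeq2 1.12.4. The annotation, the strand setting and the treatment of reads with several matches are not given in the sources used here. For each line the authors deposited unscaled counts of Ensembl genes. Per the file headers, the deposited DESeq2 tables hold a mean signal (the normalized count over libraries), a log2 fold change with its standard error, a Wald score and a p-value with its adjusted form. The MOLT-4 columns carry an unexplained suffix, "redo".

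Each line was fitted alone in edgeR 4.0.16 (R 4.3.3; TMM, filterByExpr, quasi-likelihood test, 2-sided, Benjamini-Hochberg over all genes tested, threshold 0.05). DESeq2 1.42.0, other scalings and filters, a shared spread, blocks and leaving out libraries were alternatives. The steps were also run on simulated counts with a fixed spread and changes only in well-counted genes. Those settings differ from these libraries, so nothing is read from that run for PTMS or DND-41. The libraries of a group may be technical repeats, and p-values then reflect that spread alone. CPM have a prior count of 1 on the log2 scale. Names, order, lengths and sequences came from GENCODE release 29 and RefSeq GRCh38.p14, not the build of the counts.

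The genes and the 11 lists were chosen with earlier results of these data known. Named from each list were up to 4 tested genes with the largest MOLT-4 change and at least 5 CPM in the higher group, the 2 pseudogenes with most counts, and always LGMN, MYC, KEAP1, NFE2L2, LAG3 and MLF2. The 5 genes nearest in profile to each of PTMS and PTMA were also named. Some genes that this rule takes are not reported here.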

Additional observations from a re-analysis of the deposited data

Results flagged for a closer look

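Of 65 list genes tested in both lines, 4 (6.15%) had both ACBI-1 libraries on one side of the DMSO libraries in 1 line and on the opposite side in the other, beside 4.39% of all 13272 genes tested in both. The difference between the lines was not tested. CD4 and DIS3L2 are the named genes among them, and PDE6D and MXI1 are the others. CD4, near PTMS, had a log2 fold change of 0.45 in MOLT-4 and -0.25 in DND-41 as labelled. DIS3L2, near PTMA, had -0.14 in MOLT-4 and 0.19 in DND-41 as labelled. Neither DND-41 value passed the test without the replicate block (with it, both were called), and the labels of that line are in doubt.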

How the results depend on the processing

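PTMS in MOLT-4 kept its direction under every alternative run (4.60 to 4.82 on the log2 scale, 4.60 to 4.81 with a library left out). Because this contrast chose PTMS, the kept direction is a description and no test. PTMA in MOLT-4 was -0.36 with total-count scaling, which also set its MOLT-4 DMSO level to 3446 CPM, -0.50 with no low-count filter and -0.50 to -0.47 with a library left out. Genes called in MOLT-4 fell to 544 (250 higher, 294 lower) with the spread shared with DND-41, and 2560 were called higher with no filter. In DND-41 as labelled, leaving out a library turned the sign: PTMS ran from -0.36 to 0.05 (0.05 without the library labelled ACBI-1 replicate 1 or DMSO replicate 2) and PTMA from -0.35 to 0.09 (0.01 without ACBI-1 replicate 2, 0.09 without DMSO replicate 1). By library number, PTMS was 0.36 with no filter and 0.31 to 0.47 with a library left out, and 2164 genes were called higher with no filter and 2453 to 3046 with a library left out. The cause of these changes was not tested.

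The replicate numbers name libraries and are not stated to pair them. Deviations from the group means of same-numbered libraries correlated at 0.755 in DND-41 and 0.0113 in MOLT-4, over 15944 genes. With the replicate block, DND-41 as labelled had 1349 genes called (777 higher, 572 lower), with PTMS at -0.14 and PTMA at -0.13, and MOLT-4 8581. For the named list genes, 1108 values under alternatives stayed on their side of the threshold, of which 72, none called, changed sign; 75 lost the call, 25 gained it and 0 called values changed sign. With 22 and 19 counts of PTMS in the MOLT-4 DMSO libraries, depth limits the precision of its fold change.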
